A study of Mus musculus with 2 samples.

Results

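The 36 genes described here act in G2 and mitosis, and each was measured in mouse blood after heat and in a control. They were found through the array probes, control spots aside, whose gene name equals one of 36 symbols listed for this set. All 36 symbols were found, out of 37074 gene names on the array, and all 36 were among the 18562 genes measured in both samples, meaning that at least 1 of their probes passed the scanner's flag for a signal well above background on each array. The measurement was total RNA from blood, labelled with a green dye and hybridised to 1-colour Agilent arrays, 1 array for each group. Per the labels, the heat group had 1 h of pretreatment at 37 °C in a water bath followed by 1 h at 38.5 °C. The question was which genes heat affects. For the control group, the labels give neither a temperature nor a time, so that the heat step cannot be told apart from the pretreatment or from handling. They do not say whether animals or drawn blood were heated, and they give no strain, sex or age of the mice for either group. Both groups share a preparation in which red and white cells are lysed differentially and globin transcripts are removed. A protocol in the labels speaks of 3 replicates, but each group held 1 array here. No difference below therefore has a replicate check or a p-value, and the number of arrays limits the precision.

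Entry into mitosis is driven by CDK1, a kinase that needs a B-type or A-type cyclin as its partner. Polo-like and Aurora kinases then build the spindle, kinetochore proteins tie chromosomes to its microtubules, and the spindle checkpoint holds cells back until every chromosome is attached. The anaphase-promoting complex ends this stage by marking cyclin B and securin for destruction, after which kinesins and cytokinesis proteins divide the cell. Many of these genes are transcribed late in the cell cycle through a promoter element called the cell cycle genes homology region, abbreviated CHR, and through CCAAT boxes bound by the factor NF-Y.

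The promoters are shown first. The genes were taken by symbol and not by promoter sequence, but many genes of this kind are known for these elements, as said above. Their shares below are therefore a description and not independent of the kind of gene chosen. RefSeq windows in GRCm38.p6, from 250 bases before to 50 bases after the transcription start, were matched by symbol for 31 of the 36 genes, in 33 windows. Aurkb, Ccna2, Incenp, Kif20a and Tpx2 had no matched window. The searched letters were TTTGAA or TTCGAA for the CHR and CCAAT for the NF-Y box, on both strands, and capitals mark them below. A match on the other strand reads TTCAAA or ATTGG. The 6 windows are those of cyclin B2, of an ubiquitin-conjugating enzyme, of a kinetochore protein, of a spindle protein, of topoisomerase II alpha and of a checkpoint kinase, and they carry between 2 and 6 CCAAT boxes beside a CHR. They are picked examples that all hold both elements, a pair that 11 of the 31 genes lacked.
Ccnb2 promoter, chr9:70421505-70421804, minus strand: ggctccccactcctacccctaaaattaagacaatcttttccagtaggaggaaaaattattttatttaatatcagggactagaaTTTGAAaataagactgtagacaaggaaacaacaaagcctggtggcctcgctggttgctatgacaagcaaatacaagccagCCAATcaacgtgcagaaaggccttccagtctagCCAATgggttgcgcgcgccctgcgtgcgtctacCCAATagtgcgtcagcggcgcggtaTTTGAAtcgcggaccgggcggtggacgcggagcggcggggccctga
Ube2c promoter, chr2:164769679-164769978, plus strand: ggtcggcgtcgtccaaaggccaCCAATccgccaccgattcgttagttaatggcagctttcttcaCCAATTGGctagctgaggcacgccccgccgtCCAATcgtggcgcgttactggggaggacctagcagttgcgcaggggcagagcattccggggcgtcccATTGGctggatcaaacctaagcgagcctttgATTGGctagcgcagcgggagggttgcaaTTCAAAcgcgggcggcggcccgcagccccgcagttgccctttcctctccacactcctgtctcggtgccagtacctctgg
Cenpf promoter, chr1:189688037-189688336, minus strand: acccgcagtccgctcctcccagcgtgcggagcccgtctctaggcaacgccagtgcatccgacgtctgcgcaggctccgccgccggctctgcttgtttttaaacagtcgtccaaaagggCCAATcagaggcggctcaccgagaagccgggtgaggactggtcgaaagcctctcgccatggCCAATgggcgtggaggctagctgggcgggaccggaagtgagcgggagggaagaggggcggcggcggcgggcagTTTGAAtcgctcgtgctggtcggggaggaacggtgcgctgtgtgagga
Hmmr promoter, chr11:40733388-40733687, minus strand: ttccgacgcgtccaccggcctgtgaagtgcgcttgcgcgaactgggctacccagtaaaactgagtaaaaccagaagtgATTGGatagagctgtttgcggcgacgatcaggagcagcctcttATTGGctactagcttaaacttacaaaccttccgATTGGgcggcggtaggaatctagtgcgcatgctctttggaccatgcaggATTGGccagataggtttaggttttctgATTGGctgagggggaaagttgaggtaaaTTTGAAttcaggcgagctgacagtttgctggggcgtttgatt
Top2a promoter, chr11:99024140-99024439, minus strand: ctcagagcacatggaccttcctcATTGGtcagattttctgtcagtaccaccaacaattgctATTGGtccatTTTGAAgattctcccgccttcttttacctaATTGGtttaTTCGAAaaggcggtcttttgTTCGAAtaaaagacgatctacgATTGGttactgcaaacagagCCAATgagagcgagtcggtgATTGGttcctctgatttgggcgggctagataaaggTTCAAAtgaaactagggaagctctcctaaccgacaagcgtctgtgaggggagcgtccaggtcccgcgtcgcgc
Ttk promoter, chr9:83834439-83834738, plus strand: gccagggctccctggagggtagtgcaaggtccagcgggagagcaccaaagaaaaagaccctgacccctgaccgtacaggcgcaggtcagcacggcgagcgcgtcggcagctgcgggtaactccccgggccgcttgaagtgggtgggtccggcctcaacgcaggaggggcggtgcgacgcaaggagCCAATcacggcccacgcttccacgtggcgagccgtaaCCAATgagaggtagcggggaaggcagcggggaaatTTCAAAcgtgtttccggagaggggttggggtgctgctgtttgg

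In the Ccnb2 window, the 3 CCAAT boxes followed each other at a spacing of 33 bases, and the nearer of its CHR matches began 4 bases after the start. The 2 boxes of Ttk lay 37 bases apart and those of Cenpf 61 bases apart. Hmmr had 5 boxes at spacings of 27 to 49 bases. The Ube2c window had 6 matches, of which a pair on opposite strands began 3 bases apart and overlapped. Top2a had 6 boxes and 4 CHR matches.

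Of the 33 windows, 25 (75.8%) held a CHR in either form, against 19.2% of all 32851 windows of that length in the table. CCAAT was also found in 25 windows (75.8%), against 37.4% of all windows. Both elements stood together in 22 windows (66.7%) of 20 genes, against 7.52% of all windows, 31.6% of 114 windows of other mitotic genes and 13.2% of 38 windows of G1/S and DNA replication genes. At least 2 CCAAT boxes were found in 51.5% of the windows, against 11.7% of all. The E2F letters TTCCCGC or TTGGCGC were in 15.2% of the windows, against 6.81% of all and 44.7% of the G1/S windows. Letters of a heat shock element, here the triplet GAA and its complement TTC in either order with 2 free bases between them, were in 4 windows (12.1%), against 15.1% of all. Those 4 belonged to Birc5, Cenpa, Top2a and Ttk. Such matches are letters in a window, not binding sites.

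**Figure D1:**
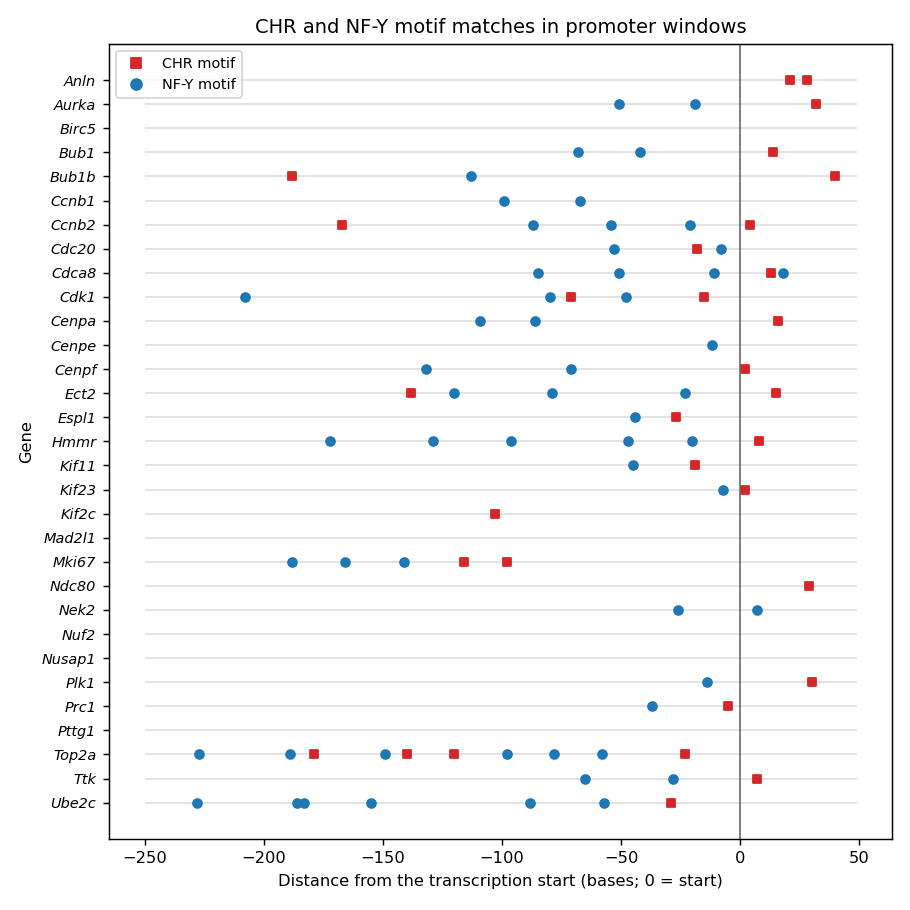
Positions of CHR (red squares) and NF-Y CCAAT (blue circles) matches in the promoter windows of 31 genes, with the distance in bases from the transcription start on the x axis and a grey line for each window. Over all 33 windows, drawn or not, 26 of 35 CHR matches lie from 100 bases before the start onward. Birc5, Mad2l1, Nuf2, Nusap1 and Pttg1 have neither match in their window.

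Matches of both kinds lay closer to the start in these genes than over all windows. The median CHR match began 15 bases before the start, and 74.3% of the 35 matches lay from 100 bases before it onward, against 41.4% of 7260 matches over all windows. For CCAAT, 71.7% of 60 matches lay there, against 53.8% of 17707. The windows of Ect2 overlap, as do those of Prc1, so the same bases of these genes count more than once.

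On the arrays, 70 probes carried the 36 names, and 69 of them were well above background on both arrays. The exception was 1 of the 2 probes for Bub1, with a signal of 4.97 in heat and 6.40 in control. Signals of the 69 probes ran from 37.2 to 51954 in the linear units of the scanner. In 57 probes the named transcript was a curated RefSeq record, and each of the 57 records carried the same symbol in GRCm38.p6. The other 12 usable probes name another transcript. A level below is the log2 signal minus the 75th percentile of its array, and a difference is heat minus control on that log2 scale, averaged over the usable probes of the gene. Levels are set side by side for the same probe or gene only.

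Whole-array facts set the scale for these values. Leaving control spots aside, an array had 56605 probes. The flag was passed by 53.8% of them in heat and 52.0% in control, and both arrays shared a slide and a scan run. Repeated spots of 300 probes differed between the arrays with an SD of 0.08 around the mean of their probe, 0.07 at signals of at least 200 and 0.20 below. The scanner software gives an error of about 0.2 for the difference of a bright spot. Among cell type markers, 8 of 9 monocyte and macrophage markers were detected on each array, 4 of 6 T cell, 4 of 6 neutrophil, 5 of 6 myeloid progenitor and 1 of 5 B cell markers. Erythroid markers were at 1 of 6, with Alas2, Klf1 and Hbb-b1 among those not well above background, and platelet markers at 1 of 5. The B cell markers Cd79a, Ms4a1 and Pax5 were also not well above background. Of the neutrophil markers, Cxcr2 and Ly6g were not, while the other 4 were.

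The 36 genes stood close to equal on both arrays. Their median difference was 0.01, as was that of all 18562 genes. Of the 36, 19 were above 0, where 52.2% of all genes were, and 17 (47.2%) were below 0, where 47.8% of all genes were. No member was 2-fold apart, against 0.663% of all genes. At a difference of at least 0.2, 3 members (8.33%) were higher in heat, against 13.1% of all genes, and none was as far below 0, against 12.2%. Gene by gene, differences ran from -0.19 for Nek2 to 0.29 for Nuf2. Each of these shares was near that of all genes or below it.

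Differences were also small in size. The median size was 0.074, against 0.104 over all genes, and over probes with a signal of at least 200 it was 0.066, against 0.080 in 13213 genes. The SD of the differences was 0.11, against 0.24. Within 0.1 of equality lay 23 of the 36 genes, against 48.5% of all genes, and within 0.2 lay 33, against 74.7%. Across the 69 probes, heat and control levels had a Pearson correlation of 0.9983, and across all usable probes 0.9966, as a description over probes that share the 2 arrays. In bulk blood, fewer cells of a type and less RNA per cell cannot be told apart.

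**Figure D2:**
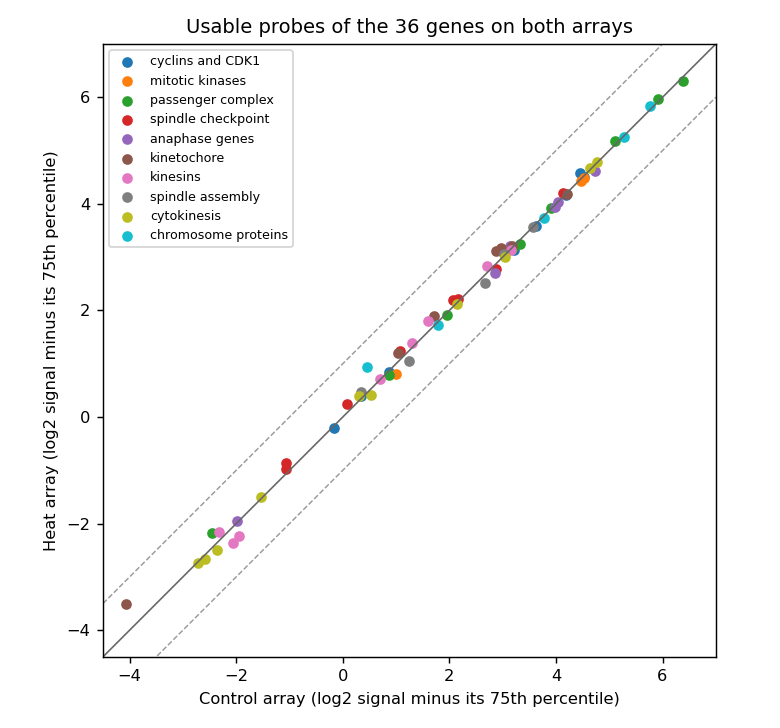
Level of each of the 69 usable probes on the control array (x axis) and the heat array (y axis), as log2 signal minus the 75th percentile of the array, coloured by role. The solid line marks equal levels and the dashed lines a 2-fold difference; every probe lies between the dashed lines, and the probe at the lower left is the dim one of Nuf2.

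Cyclins and CDK1, which start mitosis, lay within 0.12 of equality. Ccnb2, which encodes cyclin B2, had a level of 4.58 in heat and 4.46 in control, a difference of 0.12. Cdk1, the kinase itself, had 3.14 and 3.21, a difference of -0.07. Heat was thus the higher array for cyclin B2 and the lower one for its kinase, each on 1 probe. Ccnb1, which encodes cyclin B1, was at 1.15 and 1.17 over 4 probes, of which 1 was higher and 3 were lower in heat. Ccna2, for cyclin A2, was at 4.34 and 4.35 over 2 probes. Both of these differences were -0.01, less than the spread of repeated spots, and the median of the 4 genes was -0.01.

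All 3 mitotic kinases placed in this role were lower on the heat array, as 47.8% of all genes were, with a median of -0.05. Among the kinases placed in other roles, Cdk1, Aurkb and Bub1 were lower in heat and Ttk was higher, at 0.15. Plk1, the polo-like kinase, had levels of 4.48 in heat and 4.52 in control, a difference of -0.03. Under normexp background correction it was 0.03 with 75th percentile scaling and 0.05 with quantile normalization. Aurka, which encodes the Aurora kinase of spindle poles, had 4.42 and 4.47, a difference of -0.05. Nek2, a kinase that separates centrosomes, had 0.80 and 0.99. At -0.19 it was the lowest of the 36 genes, on 1 probe with signals of 1050 and 1232. Plk1 and Aurka lay within the spread of repeated spots, and Nek2 lay beyond it but within the error the scanner software gives.

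The chromosomal passenger complex corrects faulty attachments of chromosomes, and its 4 genes were split. Aurkb, its kinase, had levels of 1.99 in heat and 2.03 in control, and Birc5, which encodes survivin, had 4.78 and 4.86. Their differences were -0.05 and -0.07, and both probes of each gene were lower in heat. Incenp, the scaffold, had 4.95 and 4.92, and both of its probes were higher. Cdca8, which encodes borealin, had 1.64 and 1.54, a difference of 0.10 that rests on a dim probe of another transcript. That probe had signals of 134 and 114 and a difference of 0.27, and the curated probes of the gene gave 0.07 and -0.04, a mean of 0.01.

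Of the 4 spindle checkpoint genes, 3 were higher on the heat array, where 52.2% of all genes were, with a median of 0.11. Ttk, which encodes the checkpoint kinase MPS1, was the member with the most probes that stood on one side. Its 4 probes had signals of 308 and 296, 719 and 654, 331 and 298, and 1412 and 1302 in heat and control. Heat was the higher array at each, with differences of 0.10, 0.18, 0.19 and 0.16 and a mean of 0.15. Each of the 4 differences lay within the error of 0.20 or 0.21 that the scanner software gives for it. The probes span 34724 bases of mm9 between their outermost starts and name 3 different transcripts, so they read separate stretches of the gene, though in the same 2 samples. Bub1b, which encodes the checkpoint protein BUBR1, had 2.20 and 2.06, a difference of 0.14 on 1 probe, also within its scanner error. Mad2l1, for the inhibitor MAD2, had 3.22 and 3.15, with differences of 0.06 and 0.07 at its probes. Bub1, the kinase that recruits the others to kinetochores, stood on the other side with 2.77 and 2.88, a difference of -0.11 on its usable probe. With its dim probe kept, the value was -0.22.

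The anaphase genes were 2 higher and 2 lower, and the median was -0.03. Cdc20, the activator that the checkpoint inhibits, had levels of 3.32 in heat and 3.42 in control, with both probes lower, at -0.05 and -0.14. Ube2c, which encodes the ubiquitin-conjugating enzyme of the anaphase-promoting complex, had 4.62 and 4.73, a difference of -0.11 on 1 probe that became -0.02 under normexp background correction with quantile normalization. The 2 genes that work with the complex were thus lower in heat. Securin and separase, whose balance decides when sister chromatids part, were higher by less than the spread of repeated spots. Pttg1 (securin) had 1.05 and 1.02, and Espl1 (separase) had 3.21 and 3.13, differences of 0.03 and 0.07.

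Centromere and kinetochore genes had the highest median of the 10 roles, 0.19, and 4 of the 5 were higher in heat, where 52.2% of all genes were. Cenpf, which encodes a large protein of the outer kinetochore, had signals of 5263 in heat and 4553 in control at 1 probe and of 1399 and 1278 at the other. The heat array was higher at both, by 0.25 and 0.17, and the mean of 0.21 was the third highest of the 36. Cenpa, the histone H3 variant that marks centromeres, had signals of 5424 and 4868, a difference of 0.19. Ndc80, part of the complex that grips microtubules, had 2253 and 2036, a difference of 0.18. Each of these stood above the spread of repeated spots and near the error that the scanner software gives. Cenpe, the motor that carries chromosomes to the spindle equator, had 10924 and 11434, a difference of -0.03.

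Nuf2, the partner of Ndc80, had the highest gene mean, 0.29, from probes that disagree. The curated probe had signals of 5561 in heat and 5608 in control, a difference of 0.03. The other probe, named for a cDNA clone, had 53.2 and 37.2, a difference of 0.55 with a scanner error of 0.36. On curated probes alone, Nuf2 was at 0.03 and the median of the 5 genes at 0.18. Under normexp, another background correction, the median of the 5 was 0.09 with 75th percentile scaling and 0.11 with quantile normalization, and Cenpf was at 0.11 and Ndc80 at 0.10 under the latter.

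Among the kinesins, motors that slide or shorten microtubules, 2 were higher and 2 lower, and the median was 0.04. Kif11, which encodes the motor Eg5 that pushes spindle poles apart, had levels of 1.81 in heat and 1.59 in control. Its difference of 0.22 was the second highest of the 36, from signals of 2124 and 1871 at 1 probe, and it was 0.05 under normexp with quantile normalization. Kif2c, which encodes the depolymerising kinesin MCAK, had differences of 0.03 and 0.17 at its probes and a mean of 0.10, and the second of these probes had signals of 137 and 124. Kif20a, a motor of late mitosis, had 3.14 and 3.16, a difference of -0.02.

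Kif23, a motor of the central spindle, had probes on both sides of equality, split by the transcript they name. Curated probes had signals of 4287 and 4024, and of 1571 and 1526, in heat and control, with differences of 0.13 and 0.08. Probes named for cDNA clones had 118 and 148, and 128 and 161, with differences of -0.28 and -0.30. The gene mean of -0.09 thus joins 2 pairs that point apart, and curated probes alone gave 0.11. The sequences of 3 of these probes are shown, with mm9 coordinates from the array files, because the sign of the gene turns on them. The array files spread the curated one over 1121 bases of genome and each of the others over 60. Whether they lie in exons, introns or UTRs was not analysed here.
Kif23 probe for the curated transcript, difference 0.13, chr9:61767733-61768853, minus strand: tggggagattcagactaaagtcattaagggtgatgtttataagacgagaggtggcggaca
Kif23 probe for a cDNA clone, difference -0.28, chr9:61775096-61775155, minus strand: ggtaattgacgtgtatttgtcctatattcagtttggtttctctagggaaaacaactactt
Kif23 probe for another cDNA clone, difference -0.30, chr9:61770729-61770788, minus strand: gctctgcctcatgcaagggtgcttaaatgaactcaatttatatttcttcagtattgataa

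The spindle assembly genes had a median of 0.01. Tpx2, which activates Aurora A on microtubules, had levels of 3.06 in heat and 3.03 in control, a difference of 0.04. Nusap1, a protein that bundles spindle microtubules, had 3.57 and 3.56, a difference of 0.01. Hmmr, a microtubule-binding protein of the spindle, had 3 curated probes of both signs. Their signals in heat and control were 833 and 793, 3457 and 3936, and 1263 and 1479, with differences of 0.11, -0.15 and -0.19. Its mean of -0.08 was therefore within the SD of 0.16 over its probes. All 3 name the same transcript, and the array files place 1 of them, with the lowest difference, across 1541 bases of genome.

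Cytokinesis genes, which build the cleavage furrow and the central spindle, had the narrowest range of the roles with at least 3 members, from -0.03 to 0.01. Prc1, which bundles central spindle microtubules, had a difference of -0.03 over 5 probes, 2 higher and 3 lower. Anln, the scaffold anillin, had signals of 15485 and 15441 at 1 probe and 90.3 and 94.7 at the other, and a difference of 0.01. Ect2, the exchange factor that switches on RhoA at the furrow, had 0.00 and 0.03 as levels over 3 probes, a difference of -0.03. Each of the 3 genes had probes on both sides of equality.

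Both chromosome proteins were higher in heat, Mki67 at 1 probe and Top2a through 1 of its 4. Mki67, which encodes the proliferation marker Ki-67, had signals of 34657 and 33971, a difference of 0.07. Top2a, which encodes the topoisomerase that untangles sister chromatids, had curated probes at 8029 and 8542 and at 23147 and 24038, with differences of -0.05 and -0.02. Probes named for other Ensembl transcripts had 2008 and 2141, a difference of -0.05, and 1148 and 850, a difference of 0.47. The last is the only Top2a probe higher in heat and gives the gene mean of 0.09, which was -0.03 on curated probes alone. The sequences of the last pair are shown because the sign of the mean turns on the second of them.
Top2a probe difference -0.05, chr11:98877908-98877967, minus strand: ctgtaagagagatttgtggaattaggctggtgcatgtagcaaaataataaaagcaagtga
Top2a probe difference 0.47, chr11:98883581-98883640, minus strand: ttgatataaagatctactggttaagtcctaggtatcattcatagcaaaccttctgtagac

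**Figure D3:**
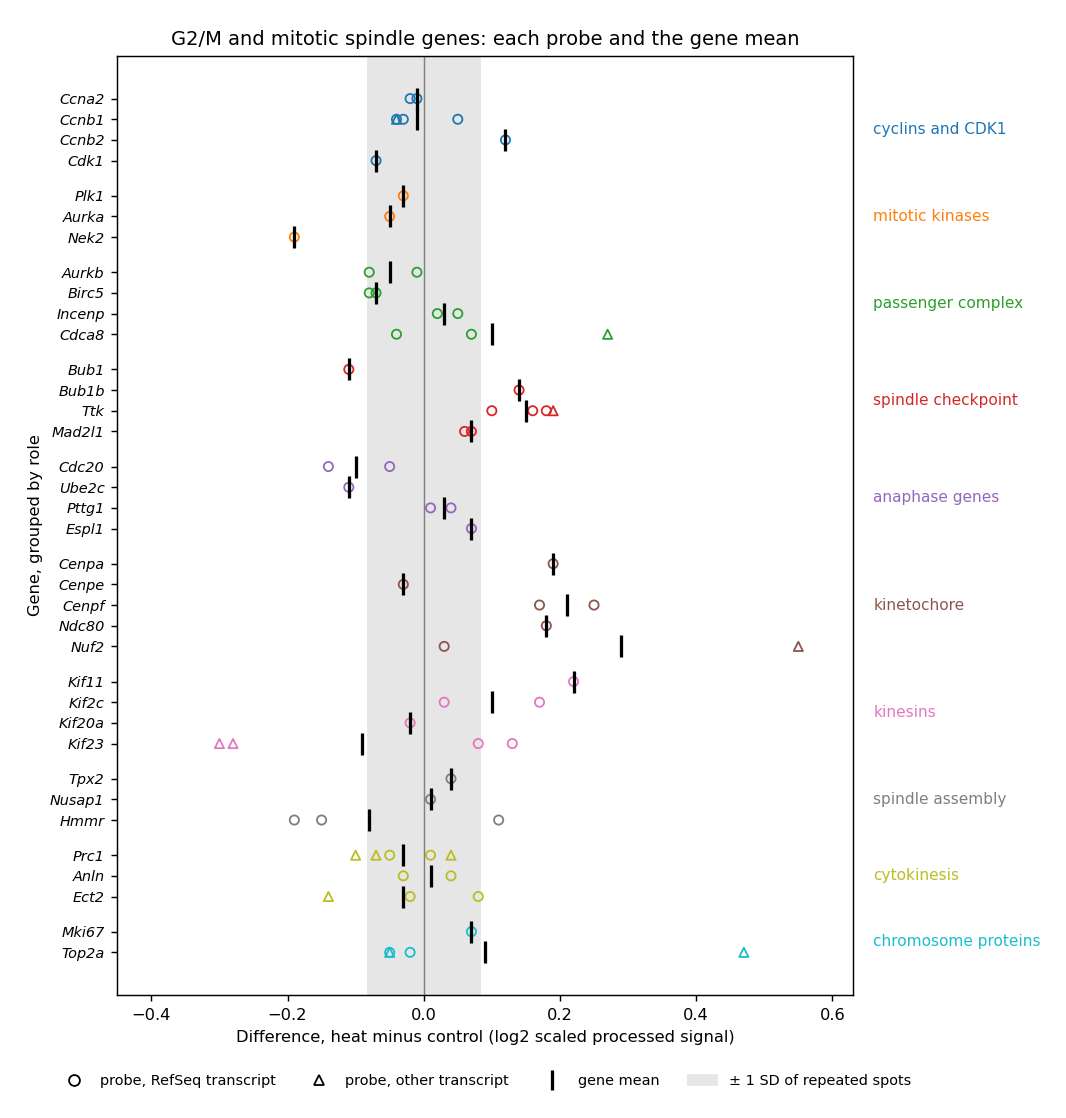
Difference of heat minus control (log2) for every usable probe of the 36 genes, grouped by role on the y axis; circles are probes of curated RefSeq transcripts, triangles probes of other transcripts, black bars gene means and the grey band 1 SD of repeated spots on either side of 0. Kinetochore genes sit mostly to the right, and the probes farthest from 0 (0.55 for Nuf2, 0.47 for Top2a, -0.28 and -0.30 for Kif23) are all triangles.

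Over all 69 probes, 36 were higher and 33 lower in heat, from -0.30 to 0.55 with a median of 0.01. At least 0.2 from 0 were 7 probes, and 4 of these had a signal under 200 on an array, as 9 of the 69 did. Of the 19 genes with several usable probes, 7 had all probes higher, 4 had all lower and 8 had both signs. Those with all probes higher were Incenp, Ttk, Mad2l1, Pttg1, Cenpf, Nuf2 and Kif2c, and those with all probes lower were Ccna2, Aurkb, Birc5 and Cdc20. The matching shares over all usable probes and all genes with several probes were not worked out. These counts therefore describe the members and do not set them apart from the array. The SD between probes of one gene was 0.142 in these 19 genes, against 0.194 in 6553 genes with several usable probes, so probes of one gene differed more than repeated spots did.

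Some probes cover stretches that are apart on the genome, as 7 of the 70 member probes do, and 3 of them are shown for checkpoint and kinetochore genes named above. They are spread over 2944, 471 and 963 bases of mm9 for 60 bases of probe.
Ttk probe difference 0.10, chr9:83758726-83761669, plus strand: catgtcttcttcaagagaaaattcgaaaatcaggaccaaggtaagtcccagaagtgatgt
Cenpa probe difference 0.19, chr5:30974916-30975386, plus strand: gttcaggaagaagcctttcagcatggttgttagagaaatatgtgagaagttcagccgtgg
Ndc80 probe difference 0.18, chr17:71860793-71861755, minus strand: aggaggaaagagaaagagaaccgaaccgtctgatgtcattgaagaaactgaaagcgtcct

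Members with and without these promoter elements had differences on both sides of 0. The 20 genes with both CHR and CCAAT were 10 higher and 10 lower, and the median was 0.02 (range -0.11 to 0.22). The other 11 with a window were 7 higher and 4 lower, and the median was 0.01. The 4 with letters of a heat shock element had differences of -0.07 for Birc5, 0.19 for Cenpa, 0.09 for Top2a and 0.15 for Ttk. Ccnb2 and Ube2c, both shown above with several CCAAT boxes, stood on opposite sides, at 0.12 and -0.11.

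Further lists, 6 in number, hold 120 measured genes of the same processes, and 69 of them were higher and 51 lower, and the median was 0.03. Regulators of mitotic entry and transcription were 10 higher and 7 lower, and the median was 0.05. Mybl2, a transcription factor of late cell cycle genes, was at -0.20, Wee1, a kinase that inhibits CDK1, at -0.15, and Pkmyt1, another such kinase, at 0.21. Among condensin and cohesin genes, 9 were higher and 8 lower, and their median of 0.09 was 0 or -0.01 under 6 alternatives. Their extremes were Ncapd2, a condensin subunit, at 0.21 and Cdca5, which encodes sororin, at -0.11.

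Of a further 35 kinetochore and centromere genes, beyond the 5 members, 18 were higher and 17 lower, and the median was 0.01. They ran from Cenph at -0.23 to Ska2 at 0.28, so that the higher values of the 5 members were not seen across this longer list. Genes of the anaphase-promoting complex and its regulators were 8 higher and 7 lower of 15, with a median of 0.00, and lay between -0.09 for Anapc11 and 0.17 for Anapc2. Further cytokinesis genes were 4 higher and 5 lower, with Iqgap3 at 0.26 and Cep55 at -0.18. Further spindle genes and kinesins were 20 higher and 7 lower of 27 (25.9% lower, against 47.8% of all genes), with a median of 0.10. At least 0.2 higher were 6 of the 27, where 13.1% of all genes were, among them Kifc1, a minus-end kinesin, at 0.62, Numa1, a spindle pole protein, at 0.43 and Psrc1, a microtubule regulator, at 0.35.

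G1/S and DNA replication genes, which act earlier in the cycle, had a lower median than the mitotic genes. Of 40, 29 were lower in heat (72.5%, against 47.8% of all genes), with a median of -0.10. At least 0.2 lower were 5 of the 40, a share near the 12.2% of all genes. Ccnd1, for cyclin D1, had levels of 4.86 in heat and 5.44 in control, a difference of -0.58. Cdt1, which licenses replication origins, had 4.71 and 5.22, a difference of -0.50. Each of these values rests on 1 probe. Cdk6, the partner kinase of D-type cyclins, was lower at all 3 probes, with a mean of -0.31. On the other side, Gmnn, the inhibitor of Cdt1, was at 0.12 and Pold1, a DNA polymerase subunit, at 0.08. The gap between this list and the 36 genes was not tested. Its median lay between -0.12 and -0.08 in all 13 settings, and that of the 36 genes between 0.00 and 0.04.

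**Figure D4:**
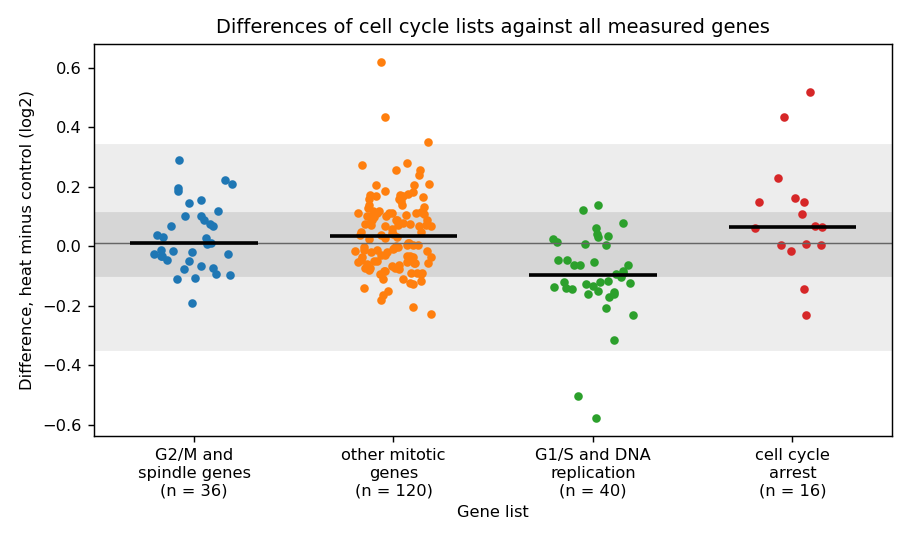
Difference of heat minus control (log2, y axis) for each measured gene of 4 cell cycle lists, with black bars at the medians; the dark and light grey bands hold the middle 50% and 90% of all 18562 genes. The 36 genes centre at 0.01, the other 120 mitotic genes at 0.03, the 40 G1/S genes at -0.10 and the 16 arrest genes at 0.07.

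Markers of cell types are given beside these values. Over the 8 measured monocyte and macrophage markers the median difference was 0.07, over 4 T cell markers 0.16, over 4 neutrophil markers 0.06 and over 5 myeloid progenitor markers -0.13. The 1 measured B cell marker was at 0.33, the 1 platelet marker at 0.26 and the 1 erythroid marker at 0.03. Signals were also summed over all probes of each marker list, whether or not they were well above background. These sums were 822000 in heat and 826000 in control for monocytes and macrophages and 59500 and 59900 for neutrophils. For T cells they were 2230 and 2160 and for myeloid progenitors 1890 and 2090. For platelets they were 11500 and 9900, for B cells 303 and 271 and for erythroid cells 116 and 126. Their part in the differences of mitotic genes was not tested.

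The sign of a member held in all 13 settings for 26 of the 36 genes, 16 above 0 and 10 below. Both signs occurred for Ccna2, Plk1, Aurkb, Incenp, Cenpe, Kif23, Prc1, Anln, Ect2 and Top2a. Cenpa kept a value between 0.16 and 0.21, Ttk between 0.12 and 0.17, Ccnb2 between 0.11 and 0.17 and Nek2 between -0.27 and -0.19. Of these, Cenpa, Ccnb2 and Nek2 have 1 usable probe, as 17 of the 36 genes do. Settings that only choose among usable probes or combine them cannot move such a gene, so its range comes from the other settings. Wider ranges were those of Nuf2, from 0.03 to 0.29, of Kif11, from 0.05 to 0.23, and of Kif23, from -0.11 to 0.13.

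**Figure D5:**
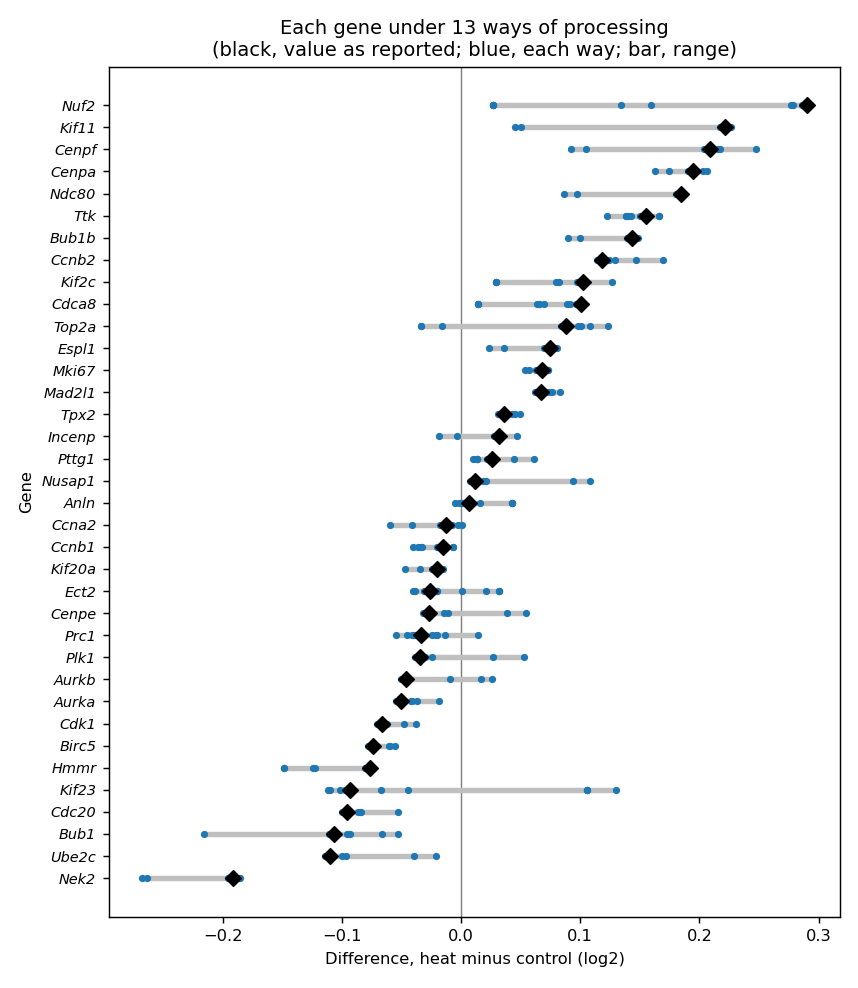
Difference of heat minus control (log2, x axis) for each of the 36 genes in 13 processing settings; black diamonds are the reported values, blue points the settings and grey bars their range. Ttk and Cenpa stay above 0.1 and Nek2 below -0.1 in each setting, and the bar of Kif23 crosses 0. Cenpa and Nek2 have 1 usable probe each, so settings that only choose among usable probes leave them unchanged.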

How the data were processed

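Blood RNA of 1 heat and 1 control sample was hybridised to Agilent arrays of 62976 spots each. Feature Extraction 10.7.1.1 read the images (protocol GE1_107_Sep09) and probe coordinates are mm9, per the file headers. In the submitters' processing notes the version is 9.1. Deposited for each array are linear intensity values (processed signal, its error, mean signal and local background) and flags, per the file headers. The authors' deposited value table holds log2 values, whose correlation with log2 processed signals after quantile normalization was 1.0 and whose median was 5.26 in each column.

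Spots flagged as outliers, 168 in heat and 149 in control, were dropped, and none was saturated. Spots of a probe were averaged after log2, and the 75th percentile over probes (604 and 620 before log2) was subtracted. A probe was usable when over 0.5 of its spots were flagged well above background on both arrays. Genes are the names in the files, and a gene value is the mean over usable probes. With 1 array per group, no test was run; differences of at least 1 (2-fold) and 0.2 were counted. The technical spread came from the spots, well above background on both arrays and not outliers, of probes printed at several spots.

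The members and lists were chosen with earlier results of these data known, and their counts and medians are a description. All 36 members are named, with the 3 highest and 3 lowest genes of each other list as candidates for naming. A few genes outside the members are not reported here. Motifs were searched in RefSeq promoter windows of GRCm38.p6. The steps were tested on simulated data under some of the settings, normexp not among them. The planted shifts were larger than any member difference and the spot noise was the same at all signals. The precision of small differences was therefore not tested. The alternatives were quantile normalization, the median of detected probes, normexp (offset 50) with either scaling, the authors' values, no filter, the brighter 50% of probes, the brightest probe per gene, outlier spots kept and other thresholds. Curated RefSeq probes only, probes under a signal of 200 left out and the median over probes were added after seeing the data. Software was Python 3.11.15 with pandas 2.3.3, numpy 2.4.6 and matplotlib 3.10.9, and limma 3.58.1 and data.table (1.17.8) in R 4.3.3.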

Additional observations from a re-analysis of the deposited data

How the results depend on the processing

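Of 432 member values under 12 alternatives, 27 moved by at least the spread of repeated spots, in 11 members. The 17 members with 1 usable probe could not move under alternatives that only choose among usable probes or combine them. With a size of at least 0.2 in place of 2-fold, 3 members were counted, and with 0.5 none. Under normexp no member was at least 0.2 higher and 1 was as far below 0, against 8.61% and 6.19% of all genes with the 75th percentile. The kinetochore median was 0.09 under normexp with the 75th percentile and 0.11 under normexp with quantile normalization, in place of 0.19. The condensin and cohesin median of 0.09 was -0.01 under both normexp settings, and 0 with no filter on dim probes, with curated RefSeq probes only, with probes under a signal of 200 left out and with the median over probes of a gene; the cause was not tested. The other role and list medians moved by less than that spread under each alternative run. Members below 0 numbered 14 to 18. With no filter the median of all genes was -0.099 and 64.1% of them were below 0, where the members kept 17 below 0. Signals under 200 limit the precision of 9 member probes. No paired analysis was possible because each group held 1 array, and for the same reason no array could be left out.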

Other observations

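Genes of cell cycle arrest and quiescence were mostly higher on the heat array. Of 16, 13 were higher and 3 lower (18.8% lower, against 47.8% of all genes). The median of 0.07 was less than the spread of repeated spots, which is a scale for single spots and not an error of a median over genes. At least 0.2 higher were 3 of the 16, where 13.1% of all genes were, and 1 was as far below 0, where 12.2% were. The 3 highest and 3 lowest genes follow. Ccng2, an unconventional cyclin of arrested cells, had levels of -0.66 in heat and -1.18 in control, a difference of 0.52 with both probes higher. Btg2, an antiproliferative gene, had -0.18 and -0.61, a difference of 0.43, and Cdkn1b, which encodes the CDK inhibitor p27, had -0.20 and -0.43, a difference of 0.23. Cdkn1a, which encodes the CDK inhibitor p21, stood on the other side with -0.80 and -0.57, a difference of -0.23, at 1 higher and 2 lower probes. Btg1 was at -0.14 and Cdkn2c, which encodes the inhibitor p18, at -0.02. The median of the list lay between 0.03 and 0.07 in the 13 settings.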
